A study of Mus musculus with 2 samples.

Results

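The CC chemokine genes of mouse chromosome 11 were compared between macrophage-type cells of the colon and monocytes of the blood. The genes are Ccl2, Ccl7, Ccl8, Ccl12, Ccl11, Ccl3, Ccl4, Ccl5, Ccl6 and Ccl9, taken by gene name or by the current symbol of the probe's RefSeq accession. All 10 had a probe, among 27238 named genes on the array, and all 10 were among the 15678 genes measured, meaning that the scanner software flagged at least 1 pool as well above background on both arrays. Each gene had 1 probe, which was spotted once per array, except for Ccl2, whose probe was spotted 10 times.

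The colon pool held CX3CR1high CD11b+ CD11c+ cells sorted from the lamina propria of the large bowel. Their donors were CX3CR1gfp/+ mice, in which green fluorescent protein stands in place of an allele of the fractalkine receptor gene. The blood pool held Ly6c+ CD11b+ monocytes of C57BL/6J mice. No treatment was named for either pool, and ages were not used here. RNA of the 2 pools was set against each other on 2 arrays with exchanged dyes, Cy5 for colon and Cy3 for blood on array 1 and the reverse on array 2. The labels call this a dye swap and do not say whether both arrays were made from the same RNA extracts, and the arrays were counted as 1 replicate. The numbers stated for colon (n = 10) and blood (n = 6) come with no word on what they count. Tissue, strain and isolation differed together with cell type and cannot be told apart.

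Chemokines are small secreted proteins that bind G protein-coupled receptors on leukocytes and make the cells move along the gradient. The CC family is named for a pair of adjacent cysteines near the amino terminus. Many of its genes lie side by side, and most of those in this cluster are known as inflammatory chemokines. They are made on stimulation by macrophages, T cells, fibroblasts and epithelial cells, and they draw monocytes, eosinophils and T cells into tissue. In the intestine, Ly6C-high blood monocytes that enter the lamina propria are the source of most resident CX3CR1high macrophages.

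In the colon pool 8 of the 10 chemokine genes were higher, and 1, Ccl6, was lower. A gene was called when both arrays gave a log2 ratio of colon over blood of 1 or more, or both gave -1 or less, and the brighter pool was well above background on both. By this rule 14.2% of all measured genes were higher and 4.46% were lower. At 4-fold on each array all 8 were still called as higher and 0 as lower, against 6.08% and 0.829% of all measured genes. At 8-fold 7 were higher, all but Ccl3, and 0 lower, against 2.86% and 0.198%. The median log2 ratio of the 10 genes was 4.73, beside 0.06 over all measured genes. With 1 replicate of each pool there was no test and no p-value, and each SD below is over the 2 arrays. It covers technical error and, if the extracts differed, the difference between extracts. In RNA of a pool, a higher share of expressing cells and more RNA per cell cannot be told apart.

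**Figure D1:**
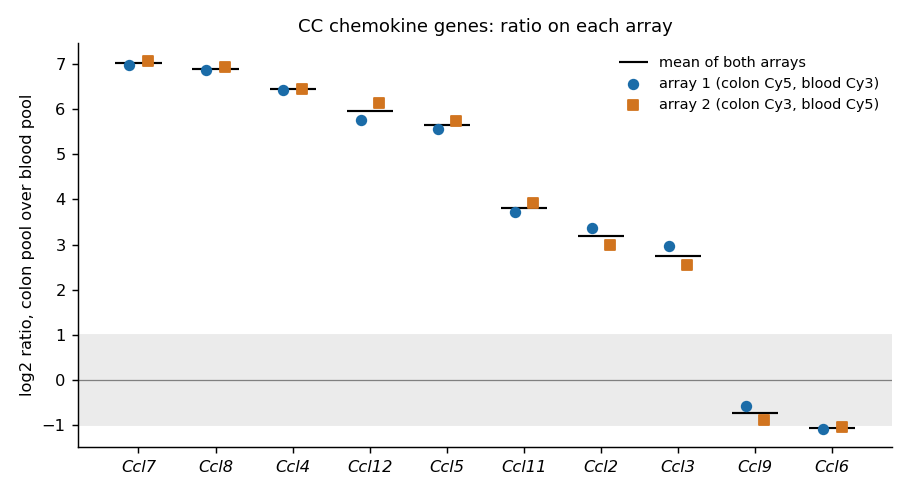
Log2 ratio of colon over blood for each of the 10 chemokine genes, with a point for each array, a bar for the mean of both, and the range between -1 and 1 shaded. 8 genes lie between 2.54 and 7.06 on every array, Ccl9 lies inside the shaded range, and Ccl6 lies just below it on both arrays.

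The probes are 60-base oligonucleotides whose letters are given in the files. Probes of related genes can bind each other's RNA where their sequences are alike, so the letters of 6 are shown, for Ccl7, Ccl12 and Ccl3, which form the closest pairs, and for Ccl9, Ccl6, Ccl3 and Ccl4, which follow each other on the chromosome. They run 5′ to 3′ in lower case, with ATTTA in capitals, the core of the AU-rich elements that mark many short-lived cytokine mRNAs.
Ccl7: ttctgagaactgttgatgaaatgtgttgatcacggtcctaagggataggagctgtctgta
Ccl12: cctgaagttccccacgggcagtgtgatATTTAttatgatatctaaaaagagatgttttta
Ccl4: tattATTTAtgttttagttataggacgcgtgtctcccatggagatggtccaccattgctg
Ccl3: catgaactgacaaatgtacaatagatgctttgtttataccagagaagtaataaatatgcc
Ccl6: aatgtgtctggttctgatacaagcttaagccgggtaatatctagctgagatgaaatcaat
Ccl9: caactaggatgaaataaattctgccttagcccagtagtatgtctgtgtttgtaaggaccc
Over all 45 pairs of the 10 probes, the best ungapped alignment matched between 18 and 26 of the 60 bases, and the longest shared run was 9 bases. ATTTA was found in 2 of the 10 probes, Ccl12 and Ccl4, and in 8.01% of all 39429 probes, searched on the printed strand. GC content ran from 31.7% to 45% in the 10 probes, with a median of 41.7% over all probes. How far each probe binds RNA of other genes was not tested.

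Ccl2, Ccl7, Ccl8 and Ccl12 were all higher in the colon pool, with a median log2 ratio of 6.42. Ccl7 encodes a ligand of CCR2 that helps release monocytes from the bone marrow, and its probe lies on chromosome 11, 81860656 to 81860715, of mouse build mm9. The Ccl7 spot had a mean intensity of 49437 in the colon pool and 260 in the blood pool on array 1, and of 22354 in the colon pool and 693 in the blood pool on array 2. The pools were thus far apart in either dye. The normalised log2 ratio of Ccl7 was 7.01 ± 0.07, a 129-fold difference, and only 4 of the 15678 measured genes had a higher one.

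Ccl8 encodes a chemokine that in the mouse acts on CCR8. Its spot (81930108 to 81930167) had 42882 in the colon pool and 238 in the blood pool on array 1, and 17952 in the colon pool and 598 in the blood pool on array 2. The log2 ratio of Ccl8 was 6.90 ± 0.03 (119-fold). The Ccl7 and Ccl8 ratios differed by 0.12, slightly more than the sum of their SDs, 0.10.

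Ccl12 encodes a rodent CCR2 ligand close to the product of Ccl2. Its spot (81916764 to 81916823) was dimmer, with 6065 in the colon pool and 67.7 in the blood pool on array 1, and 2222 in the colon pool and 79.9 in the blood pool on array 2. The blood values of Ccl12 lay close to the local background of 40.5 to 43, although the software flagged them as well above it. The log2 ratio was 5.95 ± 0.26 (61.7-fold). It depends on how background is treated. The ratio of the scanner software, which uses no offset, was 7.60, the highest of the 10 genes (194-fold), and an offset of 16 in place of 50 gave 6.70.

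Ccl2 encodes the best-known monocyte attractant, a CCR2 ligand. Its probe (81850650 to 81850709) had 10 spots on each array. On array 1 they ran from 43163 to 68907 in the colon pool, with a median of 55121, and from 2878 to 4386 in the blood pool, with a median of 3449. On array 2 they ran from 14759 to 22673 in the colon pool, with a median of 19228, and from 8734 to 13882 in the blood pool, with a median of 11907. The blood pool therefore gave a clear Ccl2 signal in both dyes. The log2 ratio over the spots ran from 3.32 to 3.44 on array 1 and from 2.94 to 3.03 on array 2, with SDs of 0.03 within each array, so the arrays did not overlap. The mean was 3.19 ± 0.27 over the arrays (9.12-fold). For Ccl2 the spread between arrays was thus wider than that between spots of an array.

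Ccl11 encodes eotaxin, a CCR3 ligand that draws eosinophils. Its spot (81876072 to 81876131) was the dimmest in colon RNA, with 1397 in the colon pool and 60.8 in the blood pool on array 1, and 559 in the colon pool and 70.3 in the blood pool on array 2. Its log2 ratio was 3.81 ± 0.14 (14.1-fold) with the offset of 50, 4.60 with an offset of 16 and 5.78 with the software's ratio (54.9-fold). As for Ccl12, the blood values were near background.

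**Figure D2:**
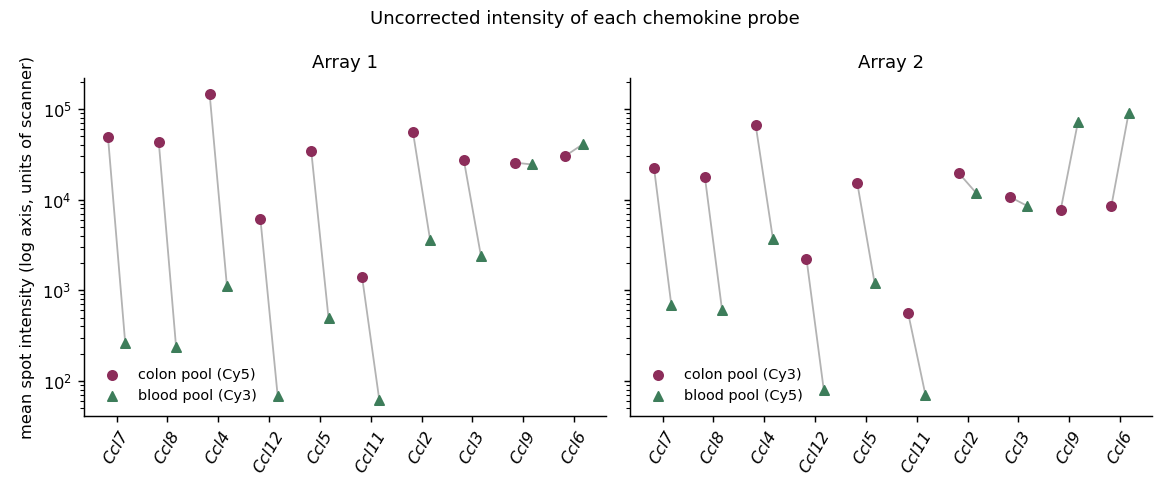
Mean spot intensity before any correction, on a log axis, for each chemokine gene in the colon pool (circles) and the blood pool (triangles) on array 1 (left) and array 2 (right), joined by a line. The colon pool is brighter for 8 genes on both arrays, the lines are short for Ccl2 and Ccl3 on array 2, and for Ccl6 and Ccl9 the blood pool is at 90903 and 71186 on array 2, where it carried Cy5.

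Ccl3, Ccl4 and Ccl5, whose products attract T cells, monocytes and NK cells, were also all higher in the colon pool. The Ccl4 spot (83478052 to 83478111) had 147056 in the colon pool and 1121 in the blood pool on array 1, and 66474 in the colon pool and 3680 in the blood pool on array 2. The log2 ratio of Ccl4 was 6.44 ± 0.02 (86.7-fold), and no probe of the array was flagged as saturated. Ccl4 gave nearly the same ratio in both dye orientations.

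Ccl3, whose product also binds CCR1, lies next to Ccl4 among the 10 probes. Its spot (83461358 to 83461417) had 27643 in the colon pool and 2365 in the blood pool on array 1, and 10721 in the colon pool and 8536 in the blood pool on array 2. Its log2 ratio was 2.75 ± 0.30 (6.75-fold), the lowest of the 8 higher genes.

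Ccl5, a chemokine made in quantity by activated T and NK cells, had a spot (83339296 to 83339355) of 34175 in the colon pool and 492 in the blood pool on array 1, and of 15137 in the colon pool and 1204 in the blood pool on array 2. The log2 ratio of Ccl5 was 5.64 ± 0.12 (49.8-fold). T and NK cell markers, which the sort did not use, were higher for 4 of 8 measured genes, with a median of 1.02. The normalised signal was also summed over all 9 genes of the list. The sums were 6625 and 6083 in the colon pool and 3145 and 2894 in the blood pool on arrays 1 and 2. The offset of 50 was added to each signal before normalization, so genes at background level add to such sums too. The NK receptor gene Ncr1 was the 1 gene of the list not measured, Cd3e read 0.58 ± 0.40, and the highest of the list were Thy1 (2.87 ± 0.05), Gzmb (2.16 ± 0.04) and Cd3d (1.77 ± 0.01). Their part in the Ccl5 ratio was not tested.

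Ccl6 and Ccl9 did not follow the other 8. Both encode chemokines with a long amino terminus that bind CCR1, known from rodents and made by myeloid cells without stimulation. The Ccl6 spot (83401997 to 83402056) had 30396 in the colon pool and 40678 in the blood pool on array 1, and 8603 in the colon pool and 90903 in the blood pool on array 2. Its log2 ratio was -1.07 on array 1 and -1.03 on array 2, which is just past the threshold of -1 (mean -1.05 ± 0.03, 2.07-fold lower in the colon pool). The Ccl9 spot (83388223 to 83388282) had 25586 in the colon pool and 24425 in the blood pool on array 1, and 7626 in the colon pool and 71186 in the blood pool on array 2. Its log2 ratio was -0.56 on array 1 and -0.88 on array 2, and neither reached the threshold of -1 (mean -0.72 ± 0.22). The difference between Ccl9 and Ccl6, 0.33, was larger than the sum of their SDs, 0.25, and had the same sign on both arrays. Both genes were bright in both pools.

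Ranked by ratio, the 10 genes ran Ccl7, Ccl8, Ccl4, Ccl12, Ccl5, Ccl11, Ccl2, Ccl3, Ccl9 and Ccl6, and each array alone gave this order. With an offset of 16 Ccl12 stood above Ccl4, and with the software's ratio Ccl12 was first and Ccl11 stood above Ccl5. Neighbours in the order differed by less than the sum of their SDs for Ccl12 and Ccl5 (0.31 against 0.39) and for Ccl2 and Ccl3 (0.43 against 0.57). The widest gap, 3.48, lay between Ccl3 and Ccl9, and it lay between 3.42 and 3.53 under the 11 alternatives tried, several of which leave these ratios as they are. Ccl9 and Ccl6 were the last of the order under each.

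The loess fit matters for bright genes. When each array was centred on its median, with no loess, the 10 ratios fell by 0.34 to 0.82 and the median of all genes fell to -0.28. Ccl3 then read 3.28 on array 1 and 0.67 on array 2 and lost its call, and Ccl6 read -0.67 on array 1 and -3.06 on array 2 and lost its call as well, which left 7 higher and 0 lower of the 10, beside 7.25% and 3.56% of all measured genes. Over all measured genes, 76.1% of the calls were higher in the colon pool, against 60.4% with the software's ratios and 67.1% with median centring. The software's ratios call more genes in general, 3175 higher and 2081 lower, against 2224 and 699 as reported.

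**Figure D3:**
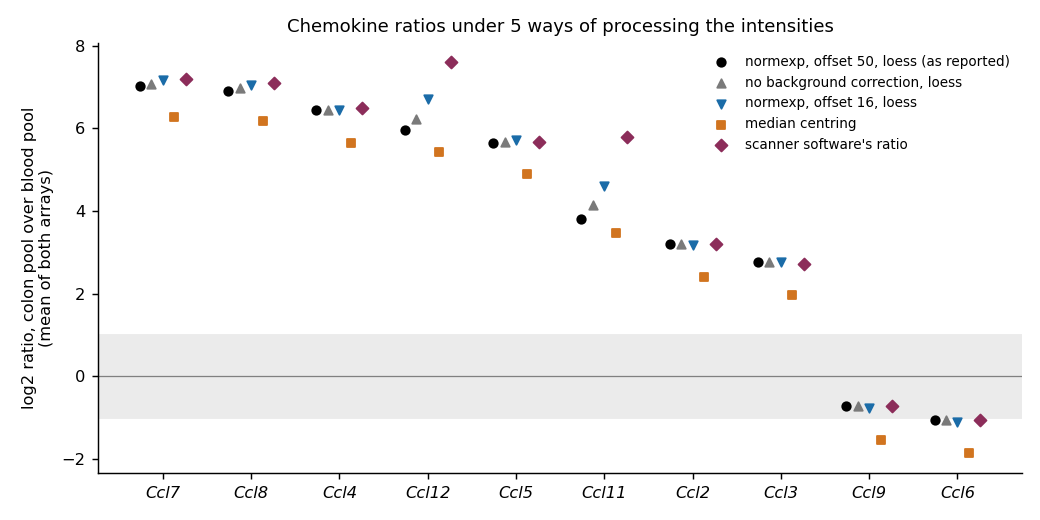
Mean log2 ratio of colon over blood for each gene under 5 ways of processing the intensities. The software's ratio raises Ccl12 to 7.60 and Ccl11 to 5.78, median centring lowers all 10 genes, and Ccl9 and Ccl6 stay below the other 8 throughout.

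On the chromosome the 10 probes lie in 2 blocks. The first spans 79.5 kb, in the order Ccl2, Ccl7, Ccl11, Ccl12 and Ccl8, and all 5 were higher (median 5.95). The second begins 1409 kb further on and spans 139 kb, in the order Ccl5, Ccl9, Ccl6, Ccl3 and Ccl4, and 3 were higher and 1 was lower (median 2.75). Ccl9 and Ccl6 are thus flanked on both sides by genes that were higher. No probe chosen for another named gene lay inside either block.

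Around and between the blocks, within 500 kb of the outermost probes, 32 other genes were measured. Of these, 2 (6.25%) were higher and 6 (18.8%) lower in the colon pool, with a median of -0.20, beside 14.2% and 4.46% of all measured genes. The higher ones were Dusp14, a phosphatase gene (1.91 ± 0.01), and Ccl1, a CCR8 ligand that is the nearest CC chemokine gene outside the 10. Ccl1 was dim, with 221 in the colon pool and 62.5 in the blood pool on array 1, and 108 in the colon pool and 70.8 in the blood pool on array 2, and read 1.12 ± 0.15. It was not called under median centring. The lowest were Wfdc21 (-3.04 ± 0.40) and the Schlafen genes Slfn1 (-2.99 ± 0.13) and Slfn4 (-2.72 ± 0.38), which lie between the blocks or just past the second.

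**Figure D4:**
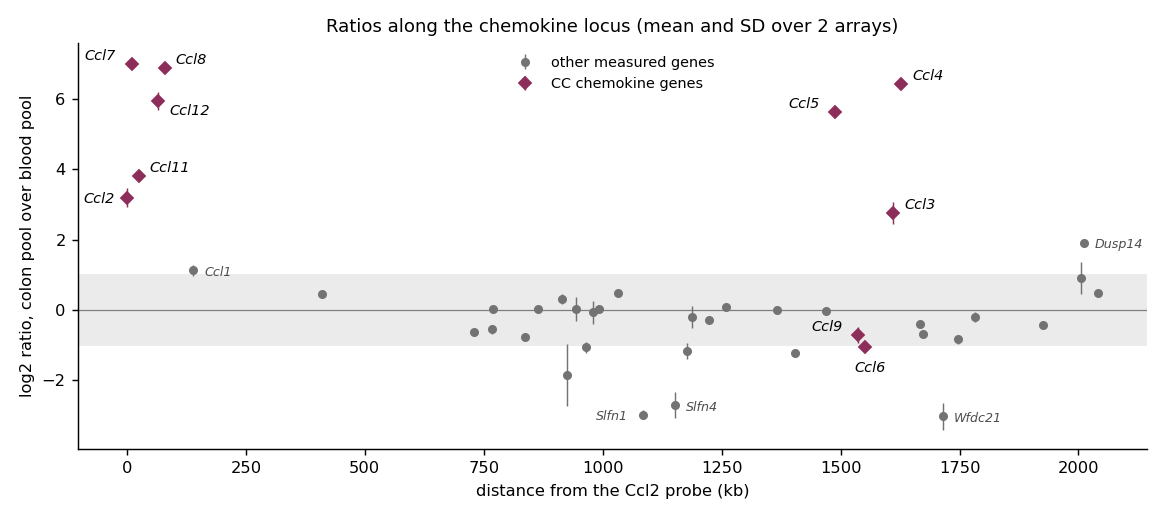
Log2 ratio of colon over blood (mean, with the SD over 2 arrays) against the distance from the Ccl2 probe in kb, for the 10 chemokine genes (diamonds) and the 32 other measured genes (grey circles). The 8 higher chemokine genes stand at 2.75 or above, Ccl1 stands at 1.12, and 5 of the 23 measured genes between the blocks were called as lower.

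Promoter sequences from RefSeq (assembly GRCm38.p6) matched 5 of the 10 genes by symbol, Ccl12, Ccl8, Ccl9, Ccl6 and Ccl3. The 250 bases before the start are printed for the 3 that held a searched motif, Ccl12 and Ccl8 as neighbours that were both higher and Ccl9 as the gene that was not called. All matches are in capitals.
Ccl12 (GRCm38.p6, chr11:82101595-82101844, plus strand): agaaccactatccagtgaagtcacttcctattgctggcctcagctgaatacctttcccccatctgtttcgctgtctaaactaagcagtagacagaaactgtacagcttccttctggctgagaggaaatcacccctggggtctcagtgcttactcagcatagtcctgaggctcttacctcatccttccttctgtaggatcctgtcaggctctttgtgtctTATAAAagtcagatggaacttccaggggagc
Ccl8 (GRCm38.p6, chr11:82114935-82115184, plus strand): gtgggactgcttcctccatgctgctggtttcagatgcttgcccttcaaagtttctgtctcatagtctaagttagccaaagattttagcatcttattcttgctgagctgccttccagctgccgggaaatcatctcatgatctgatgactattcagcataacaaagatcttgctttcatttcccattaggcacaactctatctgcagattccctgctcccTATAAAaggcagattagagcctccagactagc
Ccl9 (GRCm38.p6, chr11:83578637-83578886, minus strand): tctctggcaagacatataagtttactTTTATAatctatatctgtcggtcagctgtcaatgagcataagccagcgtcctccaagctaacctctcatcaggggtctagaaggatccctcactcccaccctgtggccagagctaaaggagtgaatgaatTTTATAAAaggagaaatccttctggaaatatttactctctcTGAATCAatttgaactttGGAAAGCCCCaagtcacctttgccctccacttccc
Motifs were searched on both strands as letters. The TATA box, TATAAA, was found in Ccl12, 31 bases before the start, in Ccl8, 32 bases before it, and in Ccl9, whose matches overlap each other around 92 bases before it with a further one at 224, and it occurs in 12.4% of the 32851 promoters of the table. The AP-1 motif, TGANTCA, was found in Ccl9 alone, 53 bases before the start, and in 6.75% of all promoters. The kappaB motif, to which NF-kappaB binds, was likewise found in Ccl9 alone, 35 bases before the start, and in 3.90% of all. Neither the interferon-stimulated response element, 2 copies of GAAA with any 2 bases between them (2.98% of all), nor the C/EBP motif TTGCNNAA (9.56% of all) was found in these 5 windows. The printed windows end at the annotated start.

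The receptors for these ligands did not move as one group. Of 8 receptor genes, all measured, 4 were higher and 1 was lower in the colon pool, beside 14.2% and 4.46% of all measured genes. The median of the 8 was 0.80. Ccr2, the receptor for Ccl2, Ccl7 and Ccl12, was lower at -3.90 ± 0.18 (14.9-fold), with spots of 659 in the colon pool and 7708 in the blood pool on array 1, and of 273 in the colon pool and 15544 in the blood pool on array 2. Ccr2 and these 3 ligand genes thus stood on opposite sides.

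Ccr1, the receptor for Ccl3, Ccl5, Ccl6 and Ccl9, read 0.32 ± 0.16 and Ccr3, the receptor for Ccl11, read 0.34 ± 0.05, and neither was called. Ccrl2, a chemokine-like receptor gene that rises on activation of macrophages, was higher at 1.82 ± 0.18 (3.52-fold). The decoy receptor genes Ackr1 and Ackr2, whose products bind inflammatory CC chemokines without signalling through G proteins, stayed at background level in blood on both arrays. They were at least 2.64-fold and at least 2.22-fold higher in the colon pool, and a second Ackr2 probe read 0.01. Such a bound sets the mean normalised colon signal against, on each array, the higher of the lowest signal well above background and the probe's own blood signal. Ccr8, the receptor for Ccl8 and Ccl1, was also not well above background in blood and did not reach the threshold (0.45 ± 0.11, at least 1.37-fold). Its other probe read 0.14. The Ccr8 value depends on how background is treated, and the software's ratio was 2.20. Under median centring 2 receptor genes were higher in place of 4, and with the software's ratio 5 were.

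Chemokine genes outside the cluster were read beside these. Of 10 other CC ligand genes, 6 were measured and 3 were higher, the lymphoid chemokine gene Ccl21a (3.81 ± 0.15), the CCR4 ligand gene Ccl17 (3.71 ± 0.03) and the eosinophil attractant gene Ccl24 (3.24 ± 0.02). None of the 6 was lower. Of 16 genes of CXC, XC and CX3C ligands, 15 were measured, 12 were higher and 1 was lower, with a median of 3.39. The highest were the neutrophil attractant genes Cxcl1 (6.96 ± 0.17) and Cxcl3 (5.23 ± 0.31, in blood well above background on 1 array alone) and the platelet chemokine gene Pf4 (5.53 ± 0.30), while the platelet gene Ppbp was lower (-1.54 ± 0.10).

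Cytokines known to induce inflammatory chemokines were higher for 8 of 9 measured genes and lower for 0, with a median of 2.36. The highest were Ifnb1, which encodes interferon beta (7.19 ± 0.37), Il6 (4.98 ± 0.13) and Il1b (3.50 ± 0.01). In the blood pool the Ifnb1 spot was dim, at 76.7 on array 1 and 109 on array 2. The Ifnb1 ratio read 8.32 with the software's ratio and 6.57 under median centring. Of the 9 cytokine genes, 6 were higher under median centring and 9 with the software's ratios. Of all 15678 measured genes, 1137 were higher under median centring and 3175 with the software's ratios, against 2224 as reported. Of 14 NF-kappaB genes, the transcription factor subunits, inhibitors and kinases that relay many inflammatory signals, 6 were higher and 1 was lower (median 0.99). Relb (2.18 ± 0.16) and the feedback inhibitor genes Nfkbie (1.95 ± 0.00) and Tnfaip3 (1.91 ± 0.02) were the highest, and the kinase gene Ikbkb was lower (-1.55 ± 0.06). These calls depend on how the arrays were normalized. Under median centring 0 of the 14 were higher on both arrays and 1 was lower, beside 7.25% and 3.56% of all measured genes, and the median was 0.32. With the software's ratios the same 6 were higher and 1 was lower, and the median was 0.94.

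Genes that control the decay of chemokine mRNAs went both ways. Of 8, 2 were higher, Zfp36l1 (2.49 ± 0.17) and Zc3h12a, which encodes the endonuclease Regnase (1.33 ± 0.13), and 1 was lower, Zfp36l2 (-2.40 ± 0.27), with a median of 0.31. Under median centring 0 were higher and 1 was lower, and the median was -0.38. Of 6 genes of proteases that trim or shed chemokines, 3 were higher, Mmp14 (4.51 ± 0.33), Mmp2, which encodes a gelatinase that cleaves the product of Ccl7 (4.05 ± 0.11), and Mmp12 (1.07 ± 0.08, at least 2.10-fold, not well above background in blood, with 0.35 from its other probe). None of the 6 was lower, against 1 with the software's ratios. The median of the proteases was 0.84.

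**Figure D5:**
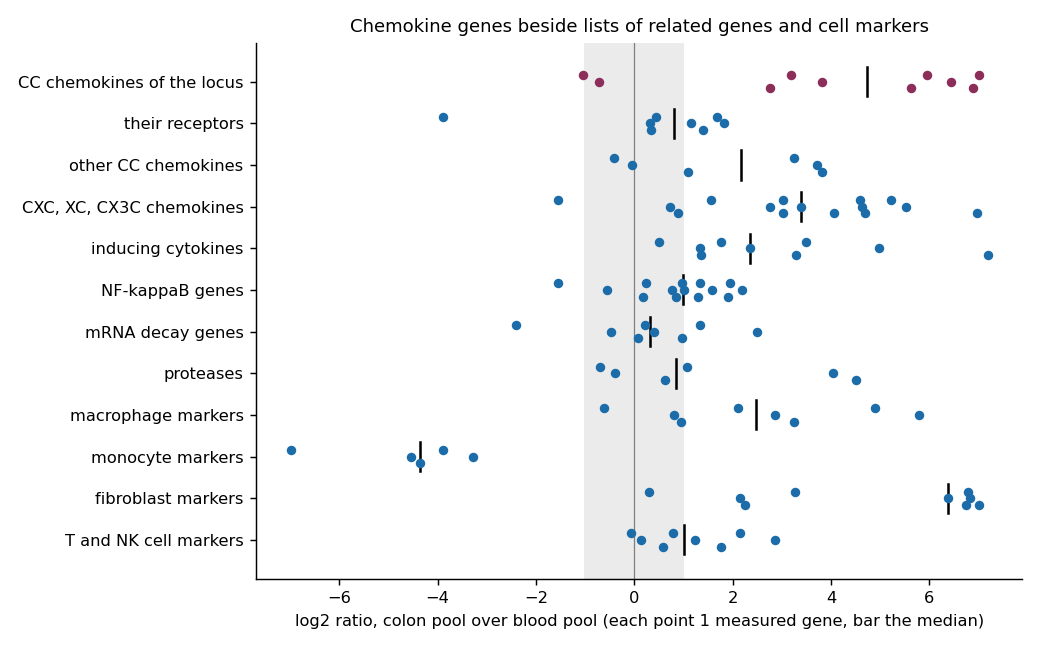
Log2 ratio of colon over blood for each measured gene of 12 lists, with a bar at each median and the range between -1 and 1 shaded. The chemokine genes of the locus have a median of 4.73, their receptors 0.80, NF-kappaB genes 0.99 and fibroblast markers 6.37, and all monocyte markers lie below -3.

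Markers of the sorted cells and of other cell types were read beside the chemokine genes, and they went both ways. Of 8 macrophage markers 5 were higher in the colon pool, led by Mrc1 (5.78 ± 0.12), C1qa (4.90 ± 0.02) and Mertk (3.24 ± 0.03). The macrophage markers Csf1r (0.95 ± 0.34), Cd68 (0.80 ± 0.01) and Fcgr1 (-0.62 ± 0.10) were not called, and under median centring 4 of the 8 were higher. Of 5 monocyte markers, which include Ccr2, all were lower, led by Chil3 (-6.98 ± 0.19) and Plac8 (-4.55 ± 0.12). Fibroblast and smooth muscle markers were higher for 8 of 9 genes, led by Dcn (7.01 ± 0.08), Lum (6.82 ± 0.14, in blood well above background on 1 array alone) and Col1a1 (6.79 ± 0.04). Their summed normalised signal was 111550 and 120114 in the colon pool and 1829 and 1809 in the blood pool on arrays 1 and 2. Fibroblasts are known to make Ccl2, Ccl7 and Ccl11, and the part of these cells in the chemokine ratios was not tested. Among mast cell markers, 2 of 4 measured genes were higher, Kit (2.51 ± 0.12, at least 5.68-fold) and Mcpt4 (2.12 ± 0.13). Over all 5 mast cell genes the sums were 1114 and 950 in the colon pool and 411 and 369 in the blood pool. Of the 5 genes, 4 were not well above background in blood on 1 or both arrays. Fcer1a was not well above background in either pool. The blood sum thus holds mostly genes near background. Of 4 eosinophil markers, 3 were measured and none was called, against 1 higher with the software's ratios. Sums over all 4 were 1041 and 995 in the colon pool and 666 and 752 in the blood pool. In blood 2 of the 4 were not well above background on 1 or both arrays.

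Epithelial markers were higher for 5 of 7 genes, led by Krt8 (4.01 ± 0.24, and 2.26 from its other probe). Their sums were 3661 and 3067 in the colon pool and 620 and 497 in the blood pool, where 4 of the 7 were not well above background. Endothelial markers were higher for 2 of 6, Egfl7 (3.47 ± 0.19) and Plvap (2.74 ± 0.08, and 1.05 from its other probe), with sums of 4765 and 4673 in the colon pool and 1787 and 1558 in the blood pool, and 4 were higher with the software's ratios. B and plasma cell markers were higher for 5 of 6, led by Jchain (5.18 ± 0.22), with sums of 33785 and 34925 in the colon pool and 2230 and 2301 in the blood pool, and 2 were higher under median centring. Neutrophil markers were lower for 4 of 7, led by Mmp8 (-4.99 ± 0.30), with sums of 9203 and 7549 in the colon pool and 95195 and 72368 in the blood pool. The brightest spots in blood were those of S100a9, at 58376 and 101740 on arrays 1 and 2, and S100a8, at 17918 and 36969. Mpo (-0.27 ± 0.07), Elane (0.47 ± 0.13) and Ltf (0.00 ± 0.09) were not called, so the sums do not measure a share of neutrophils. The part of these cell types in the chemokine ratios was not tested either.

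By distance over the ratios of both arrays, the genes outside the list that lay nearest to the median of the 10 chemokine genes were Tagln (4.74 ± 0.14), Bcl2a1c (4.71 ± 0.12) and LOC435333 (4.71 ± 0.04). This likeness rests on 2 arrays and describes the size of the ratio alone.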

How the data were processed

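Total RNA of the 2 pools, 25 ng each, was amplified from an oligo-dT primer and labelled with Cy3 or Cy5, per the labels' protocols. The deposited scanner files of array design 026655 give spot and local background intensity in linear units, not normalized, and a log10 ratio of red over green after the software's own correction, per the file headers. The software is Agilent Feature Extraction 10.7.3.1 per the file headers and 10.5.1.1 per the submitters' processing notes. A value table, also deposited, holds the same log10 ratio, turned to colon over blood (largest difference 4.81e-08).

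Intensities were corrected with normexp (offset 50) and normalized by loess within each array (limma 3.58.1, R 4.3.3), with control and outlier spots at weight 0. The ratio of array 2 was turned and both arrays were averaged. Spots of a probe were averaged, and the brightest probe stood for a gene. Names came from RefSeq accessions for 29529 of 43020 spots, from the file for 8751, and 4740 stayed unnamed. Between 52.9% and 59.6% of spots were well above background per pool and array, and the number of arrays limits the precision. Per-pool signals are after normexp with the offset of 50, loess and Aquantile, so sums over a list hold a floor from its dim probes. Probe positions are on mm9. In a simulated dye swap of colon over blood with 43020 probes, 98 of 100 probes changed by 1.5 (log2) and 100 of 100 changed by 3 passed the rule (medians 1.44 and 2.84), with 0 calls among unchanged ones. Only bright probes were changed, as many up as down, and noise, background and dye bias were set in advance. The calls in the real data were far more numerous and mostly upward. The simulation therefore checks the processing steps and gives no error rate for these data.

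All 10 members, all receptor genes and, of each other list and of the chromosome neighbours, up to 3 genes per direction past the 2-fold rule are named. Some genes that this rule covers are not reported here. Members and lists were chosen with earlier results of these data known. Alternatives were other background corrections, centring, the software's ratios, the value table, Aquantile, the mean over probes, each array alone, other filters and other fold thresholds.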

Additional observations from a re-analysis of the deposited data

How the results depend on the processing

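The median log2 ratio of the 10 chemokine genes was 4.73 and read 4.91 without background correction, 5.16 with an offset of 16, 4.19 under median centring and 5.72 with both the software's ratio and the deposited value table, which hold the same values. The count of higher members was 7 under median centring and 8 under the other alternatives. The count of lower members was 0 under median centring and with a threshold of 4-fold, and 1 under the other alternatives. The receptor list had 2 higher members under median centring and 5 with the software's ratio. Aquantile scaling, the mean over probes (1 per gene here) and the filters on dim probes leave the ratios of these genes as they are, and a single array of 2 cannot move a mean by more than the SD. Over the other 4 distinct settings, 23 of 40 ratios of single genes moved by more than the SD between arrays, 17 by less, and 0 changed sign. No paired analysis was possible because the arrays are a labelled dye swap counted as 1 replicate of 1 group. The dim blood signals of Ccl12 and Ccl11 limit the size of their ratios. Ccl6 is called by a narrow margin.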
